A study of Mus musculus with 6 samples.

Results

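The IL-1 and IL-18 receptor system is described here as 10 genes, the rows of the normalized count table whose symbols are *Il1r1*, *Il1rap*, *Il1rl1*, *Il18r1*, *Il18rap*, *Il18bp*, *Sigirr*, *Myd88*, *Irak1*, and *Irak4*. All 10 were found among the 26264 genes of the table, and all 10 passed the filter on low values, a mean normalized count of at least 10. HSCs were sorted from bone marrow as LSK CD150+CD48- cells, and 1 library was made per mouse from 3 WT (C57Bl/6) and 3 *Irf1-/-* (B6.129S2-Irf1 tm1Mak/J) mice. The mice were female, 8 weeks old and untreated, and the deletion of *Irf1* was present in the whole body, so direct effects in HSCs and effects of other *Irf1-/-* cells on them cannot be told apart. Libraries are named by the replicate numbers 2, 3, and 4 of the labels, which elsewhere number the same libraries 1, 2, and 3. The comparison asks how loss of this interferon-responsive transcription factor altered the transcripts through which HSCs could sense IL-1 family cytokines.

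IL-1α and IL-1β bind the receptor chain encoded by *Il1r1*, IL-33 binds the product of *Il1rl1*, and both complexes recruit the accessory chain encoded by *Il1rap*. IL-18 binds the product of *Il18r1* and recruits the accessory chain encoded by *Il18rap*, and the secreted protein encoded by *Il18bp* captures IL-18 before it reaches the receptor. The receptors signal through the adaptor MYD88 and the kinases IRAK4 and IRAK1 to NF-κB and stress kinases, and in HSCs IL-1 is known for driving division and myeloid differentiation.

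Reads counted on genes were 43138521, 57281017, and 45129929 in *Irf1-/-* replicates 2, 3, and 4 and 59658080, 45332573, and 43267486 in the corresponding WT replicates. The values below are normalized counts, that is, reads per gene divided by the size factor of the library. The amplification used no molecular identifiers, so PCR copies were counted as separate reads. Reads were still counted on *Irf1* itself, at 9267, 9524, and 9287 in *Irf1-/-* HSCs and 10122, 11119.6, and 12057.5 in WT HSCs. Each *Irf1-/-* library was below each WT library, and the difference in log2 was −0.24 (adjusted *P* = 0.170, SE 0.088, limma). A count per symbol does not show which part of the gene the reads came from.

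Libraries stood apart within genotypes. The first principal component, with 32.4% of the variance, set WT replicate 4 on the side of *Irf1-/-* replicates 2 and 4, and the remaining 3 libraries on the other side. The second (24.8%) separated the genotypes, with *Irf1-/-* libraries at 5.72, 57.6, and 16.2 and WT libraries at −37.7, −14.8, and −27.0 for replicates 2, 3, and 4. WT replicate 4 had 1033 normalized counts of *S100a8* and 1246 of *S100a9*, which encode calcium-binding proteins of neutrophils, where the other 5 libraries had at most 131 of either. *Ly6g*, a neutrophil surface marker, was at 46.3 in this library and at most 1.07 in the others. *Ly6c2*, a marker of monocytes, was at 808 in WT replicate 3 and at most 181 elsewhere. These 4 genes of a list of 10 granulocyte and monocyte markers were chosen by their values, and other genes of the list followed them in part. *Cd14* was lowest in WT replicate 3 (48.5), and *Mpo*, *Elane*, and *Itgam* were lower in WT replicate 4 (253, 64.5, and 1480.3) than in *Irf1-/-* replicate 4 (355, 67.5, and 2228). Within WT, *Elane* and *Mpo* were highest in replicate 4, where replicates 2 and 3 had 6.58 and 33.8 of *Elane* and 227 and 231 of *Mpo*. *Csf1r* was at 385 in WT replicate 3 and at most 328 elsewhere. *Itgam* (1689) and *Lyz2* (29137) were highest within WT in replicate 3. Both were higher in an *Irf1-/-* library, *Itgam* in replicate 4 and *Lyz2* in replicate 3 (31462). Without WT replicate 4, 3 members were called higher and 1 lower by the rule given next, and of all 17202 genes then tested 304 were called higher and 265 lower, where 167 and 166 were with all libraries.

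*Il18bp* fell and the transcripts of *Il1r1* and *Il18rap* rose in *Irf1-/-* HSCs. A gene was called when its adjusted *P* in limma was under 0.05 and its absolute log2 fold change, *Irf1-/-* over WT on the log2(normalized count + 1) scale, was above 0.58. By this rule 2 of 10 members were called higher, where 0.960% of all 17404 tested genes were, and 1 of 10 was called lower, against 0.954% of all tested genes. Without *Irf1-/-* replicate 2, 0 members were called higher, and without *Irf1-/-* replicate 3, WT replicate 2 or WT replicate 3, 1 was. The 3 libraries of one genotype lay apart from those of the other for 6 members, with 4 higher in *Irf1-/-* HSCs (10.6% of all tested genes) and 2 lower (9.27%). The median log2 fold change was 0.091 over the members and −0.0028 over all tested genes. In bulk RNA, fewer cells expressing a gene and less RNA per cell cannot be told apart.

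*Il18bp* encodes the soluble IL-18 binding protein, a decoy that is known to be induced by interferon-γ. Its normalized counts were 836 in WT replicate 2, 1210.3 in replicate 3, and 915 in replicate 4. In *Irf1-/-* HSCs they were 163, 175, and 165 in the same order. The highest *Irf1-/-* library was far below the lowest WT library, and the *Irf1-/-* libraries were close to one another. The mean fell from 987 ± 197 (SD, *n* = 3 mice) to 168 ± 6.62, so that the WT mean was 5.88-fold higher. The log2 fold change was −2.53 (95% interval −2.93 to −2.14, adjusted *P* = 2.21e-06, limma), and *Il18bp* was called under each of the 16 alternative fits. Its neighbours in the gene order of GRCm38.p6 were not called, with log2 fold changes of 0.21 for *Numa1* (adjusted *P* = 0.266, limma) and 0.060 for *Rnf121* (adjusted *P* = 0.901, limma).

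*Il18rap*, which encodes the signaling chain of the IL-18 receptor, had 908, 633, and 999 normalized counts in WT replicates 2, 3, and 4. In *Irf1-/-* HSCs it had 1889, 1360.1, and 1498. All *Irf1-/-* libraries were above all WT libraries, and *Irf1-/-* replicate 2 was the highest. The mean rose from 847 ± 190.5 (SD, *n* = 3 mice) to 1582 ± 274, or by 0.91 in log2 (95% interval 0.54 to 1.28, adjusted *P* = 0.0103, limma). Without *Irf1-/-* replicate 2 the call was lost (0.78, adjusted *P* = 0.0659, limma), as it was when limma was fitted without the intensity trend (adjusted *P* = 0.249). Over the 16 alternative fits the adjusted *P* of *Il18rap* ranged from 1.89e-05 to 0.249.

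*Il18r1* encodes the chain that binds IL-18. Its normalized counts were 99.6, 93.5, and 202 in WT replicates 2, 3, and 4 and 244, 261, and 287 in the corresponding *Irf1-/-* replicates. The genotypes did not overlap, but WT replicate 4 was nearer to the *Irf1-/-* libraries than to the other WT libraries. The difference in log2 was 1.09 with a 95% interval of 0.45 to 1.73 and was not called (adjusted *P* = 0.0682, limma). It was called without WT replicate 4 (1.44, adjusted *P* = 0.00786, limma) and by DESeq2 on the recovered reads (1.00, adjusted *P* = 0.0178), whereas edgeR did not call it (adjusted *P* = 0.103). With a term for the replicate number in limma the adjusted *P* was 0.039, and over the alternative fits it ranged from 0.00786 to 0.307.

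Per kb of transcript, both chains of the IL-18 receptor and its decoy could be set side by side within each library. The ratio of *Il18bp* to *Il18rap* levels per kb was 3.22, 6.67, and 3.20 in WT replicates 2, 3, and 4. It was 0.302, 0.450, and 0.385 in the corresponding *Irf1-/-* replicates, so that the decoy transcript exceeded the accessory chain transcript in all 3 WT libraries and was below it in all 3 *Irf1-/-* libraries. The ratio of *Il18bp* to *Il18r1* levels per kb was 25.6 ± 12.5 (SD, *n* = 3 mice) in WT HSCs and 1.90 ± 0.161 in *Irf1-/-* HSCs. *Il18rap* was above *Il18r1* per kb in every library, by a ratio of 5.90 ± 1.78 in WT and 5.15 ± 1.24 in *Irf1-/-* HSCs, and this ratio overlapped between genotypes. These ratios are of transcripts in sorted HSCs and carry no test of their own.

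*Il1r1*, which encodes the signaling receptor for IL-1α and IL-1β, had 647, 726, and 808 normalized counts in WT replicates 2, 3, and 4. In *Irf1-/-* HSCs it had 1406, 1334, and 952. The genotypes did not overlap, with *Irf1-/-* replicate 4 nearest to the WT libraries. The mean rose from 727 ± 80.6 (SD, *n* = 3 mice) to 1231 ± 244, or by 0.74 in log2 (95% interval 0.40 to 1.09, adjusted *P* = 0.0217, limma). The call was lost in limma without *Irf1-/-* replicate 2 (0.64, adjusted *P* = 0.115) or 3 (0.68, adjusted *P* = 0.0714), without WT replicate 2 (0.66, adjusted *P* = 0.0751) or 3 (0.75, adjusted *P* = 0.0641), and without the intensity trend (adjusted *P* = 0.258). Over the alternative fits the adjusted *P* of *Il1r1* ranged from 0.000202 to 0.258.

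*Il1rap*, the accessory chain shared by the receptors for IL-1, IL-33, and IL-36, differed the other way. It had 1690.3, 1879.8, and 1674 normalized counts in WT replicates 2, 3, and 4 and 1403, 1504, and 1659 in *Irf1-/-* HSCs. The genotypes did not overlap, but *Irf1-/-* replicate 4 was close to the lowest WT library. The difference in log2 was −0.20 (95% interval −0.44 to 0.037) and did not pass the test (adjusted *P* = 0.413, limma). The noncoding gene *Gm20319* overlaps *Il1rap* in the RefSeq gene table, and how shared reads were assigned is not given in the sources used here. The ratio of *Il1r1* to *Il1rap* levels per kb was 0.358, 0.361, and 0.452 in WT replicates 2, 3, and 4 and 0.938, 0.830, and 0.537 in the corresponding *Irf1-/-* replicates.

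*Il1rl1*, which encodes the IL-33 receptor ST2, had 79.8, 136, and 86.1 normalized counts in WT replicates 2, 3, and 4 and 159.9, 26.8, and 66.4 in *Irf1-/-* HSCs. *Irf1-/-* replicates 2 and 3 held the highest and the lowest value of all libraries, and the genotypes overlapped. The difference in log2 was −0.56 with a 95% interval of −1.68 to 0.56 (adjusted *P* = 0.680, limma), and it was 0.075 without *Irf1-/-* replicate 3.

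*Sigirr* encodes a receptor of the same family that is known to dampen IL-1 and IL-18 signaling. Its normalized counts were 7577, 8107, and 8868 in WT replicates 2, 3, and 4 and 8655, 9270.4, and 9096 in *Irf1-/-* HSCs. WT replicate 4 lay among the *Irf1-/-* libraries, and the difference in log2 was 0.14 (95% interval −0.047 to 0.33, adjusted *P* = 0.488, limma).

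The intracellular members differed little between genotypes. *Myd88*, the adaptor, had 5444, 5948, and 5417 normalized counts in WT replicates 2, 3, and 4 and 5589, 6196, and 5514 in *Irf1-/-* HSCs. *Irak1* had 18507, 20587, and 18240 in WT and 18475.5, 18534, and 18586 in *Irf1-/-* HSCs. Both genes overlapped between genotypes, with intervals of the log2 difference of −0.15 to 0.23 for *Myd88* (adjusted *P* = 0.890, limma) and −0.22 to 0.14 for *Irak1* (adjusted *P* = 0.877, limma). The sign of either difference was not stable, since *Myd88* was at −0.012 without *Irf1-/-* replicate 3 and *Irak1* at 0.031 after quantile normalization and 0.012 without WT replicate 3. *Irak4*, the kinase that acts before IRAK1, had 2082, 2081, and 2043 normalized counts in WT and 2344, 2324, and 2380.4 in *Irf1-/-* HSCs. Its libraries were tightly grouped and did not overlap, at a log2 difference of 0.18 (95% interval −0.017 to 0.38) that did not pass the test (adjusted *P* = 0.362, limma).

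Compared per kb in WT HSCs, transcripts of *Irak1*, *Myd88*, *Irak4*, and the dampening receptor *Sigirr* were more abundant than those of the ligand-binding chains. *Irak1* was at 4983 ± 335 normalized counts per kb (SD, *n* = 3 mice), *Sigirr* at 4113 ± 326, and *Myd88* at 2859 ± 153. *Il18bp* (705 ± 141) and *Irak4* (602 ± 6.52) came next and differed by less than the SD of *Il18bp*. They were followed by *Il1rap* at 387 ± 25.3, *Il18rap* at 173 ± 39.0, and *Il1r1* at 151 ± 16.7, of which the last pair differed by less than the SD of *Il18rap*. *Il18r1* (31.7 ± 14.7) and *Il1rl1* (19.0 ± 5.85) were lowest and differed by less than the SD of *Il18r1*. In *Irf1-/-* HSCs *Il18bp* was at 119.9 ± 4.73 per kb, below *Il1rap* (337 ± 28.5), *Il18rap* (324 ± 56.1), and *Il1r1* (255 ± 50.6).

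Several members are neighbours on chromosome 1, where the gene order of GRCm38.p6 is *Il1r2*, *Il1r1*, *Il1rl2*, *Il1rl1*, *Il18r1*, and *Il18rap*. A pair of noncoding entries between them was not analysed here. Of these 6 genes, 2 were called higher (*Il1r1* and *Il18rap*, against 0.960% of all tested genes), 5 had a log2 difference above 0 (8628 of all 17404 tested genes did), and the median was 0.77. *Il1r2*, which encodes a decoy receptor for IL-1, had 57.6, 37.2, and 47.3 normalized counts in WT replicates 2, 3, and 4 and 89.5, 79.5, and 77.9 in *Irf1-/-* HSCs. It did not overlap between genotypes and was not called (0.80, 95% interval 0.014 to 1.59, adjusted *P* = 0.295, limma). *Il1rl2*, which encodes the IL-36 receptor, overlapped between genotypes (0.33, adjusted *P* = 0.443, limma).

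Of the 5 coding genes on each side of the cluster, 8 were tested and 0 were called in limma, edgeR, or DESeq2, with a median log2 difference of 0.43. Of all tested genes, 0.960% were called higher and 0.954% lower in limma. *Rfx8* (0.71, unadjusted *P* = 0.0477, limma) and *Map4k4* (0.38, unadjusted *P* = 0.0206, limma) had an unadjusted *P* under 0.05, as did 16.5% of all tested genes. *Rnf149* (0.10), *Creg2* (0.77), *Slc9a2* (0.48), and *Mfsd9* (0.11) were also above 0, and *Slc9a4* (−0.33) was below. *Tmem182* (0.55) passed the filter on low values only through *Irf1-/-* HSCs (mean 13.2, against 8.63 in WT). No direction is read from *Tmem182*, which is included in the median of 0.43. *Gm3646* and *Pou3f3*, with at most 1 read in any library, were not tested. The cluster and its flanks were not compared with a test. The other members lie on chromosomes 7 (*Il18bp* and *Sigirr*), 9 (*Myd88*), 15 (*Irak4*), 16 (*Il1rap*), and X (*Irak1*), and none is on chromosome 11 with *Irf1*.

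Promoter sequences from RefSeq (GRCm38.p6) were matched to 9 of the 10 members, all but *Sigirr*, in 14 windows, and the 250 bases before each transcript start were searched on both strands. AANNGAAA, the core of sites bound by interferon regulatory factors, occurs in 21.3% of all 32851 promoters. A pair of GAAA copies with 2 bases between them, which contains AANNGAAA, occurs in 2.98%. The NF-κB motif GGAAATTCC occurs in 0.286% and the NF-κB motif of the immunoglobulin κ enhancer in 0.140%.

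AANNGAAA matched in *Il18rap*, *Myd88*, and *Il18r1*, the GAAA pair in *Myd88*, and GGAAATTCC in *Il18rap*. The matches in *Il18r1* include 1 that falls in both of its overlapping windows. Windows of *Il1r1*, *Il1rap*, *Il1rl1*, *Il18bp*, *Irak1*, and *Irak4* held none of these 4 motifs. A match is a description of the letters, and a window without one says only that these letters are not in it. The windows of the 3 called members, which moved with genotype, and of *Myd88*, the member with the GAAA pair, are printed 5′ to 3′ on the strand of the gene, with motif matches in capitals. They are chr1:40224830-40225079 and chr1:40266336-40266585 (plus strand) for *Il1r1*, chr1:40515112-40515361 (plus strand) for *Il18rap*, chr7:102018233-102018482 (minus strand) for *Il18bp*, and chr9:119340019-119340268 (minus strand) for *Myd88*.
Il1r1 window 1: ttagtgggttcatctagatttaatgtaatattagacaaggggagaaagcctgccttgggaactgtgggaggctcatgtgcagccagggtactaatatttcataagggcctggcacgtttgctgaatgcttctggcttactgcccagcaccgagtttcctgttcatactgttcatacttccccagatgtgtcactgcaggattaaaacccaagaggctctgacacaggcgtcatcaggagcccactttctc
Il1r1 window 2: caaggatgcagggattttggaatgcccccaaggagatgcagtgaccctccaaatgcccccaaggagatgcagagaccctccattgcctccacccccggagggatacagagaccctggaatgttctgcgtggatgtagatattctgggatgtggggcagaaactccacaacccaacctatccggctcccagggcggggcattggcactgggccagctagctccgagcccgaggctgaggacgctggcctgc
Il18rap: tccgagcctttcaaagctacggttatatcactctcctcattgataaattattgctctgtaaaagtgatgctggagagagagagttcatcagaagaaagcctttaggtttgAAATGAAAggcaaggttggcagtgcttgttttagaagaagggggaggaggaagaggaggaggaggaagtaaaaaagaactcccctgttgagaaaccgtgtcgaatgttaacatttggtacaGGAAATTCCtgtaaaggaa
Il18bp: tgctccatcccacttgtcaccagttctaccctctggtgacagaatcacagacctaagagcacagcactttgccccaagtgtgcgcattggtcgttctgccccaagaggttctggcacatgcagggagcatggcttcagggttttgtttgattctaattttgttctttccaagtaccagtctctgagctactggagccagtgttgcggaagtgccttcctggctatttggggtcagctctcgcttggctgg
Myd88: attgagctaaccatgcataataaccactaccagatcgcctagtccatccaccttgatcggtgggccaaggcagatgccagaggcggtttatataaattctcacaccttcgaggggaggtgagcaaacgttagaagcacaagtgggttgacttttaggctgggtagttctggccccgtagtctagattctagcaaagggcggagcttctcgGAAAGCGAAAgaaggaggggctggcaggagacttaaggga

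In *Il18rap* the capitals mark AANNGAAA, at 140 bases before the start, and GGAAATTCC, at 19 bases before it. In *Myd88*, whose transcript overlapped between genotypes, the capitals are 1 run, the GAAA pair, at 40 bases before the start.

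By Pearson's *r* of log2 values over the 6 libraries, which share the genotype split, the genes most like *Il18bp* were *Tgtp1* (0.997), *H2-Eb1* (0.997), and *Tapbpl* (0.997), all of them called lower. Those most like *Il1r1* were *Cyp11a1* (0.990), *Tdrd12* (0.989), and *Ly9* (0.987). *Pvr* (0.996) and *Ephb2* (0.995) were among those most like *Il18r1*, and *Cox7a1* (0.995), *Cyp46a1* (0.990), and *Zfp879* (0.989) most like *Il18rap*. None of these genes named for the receptor chains was called by limma at the filter used here, where each had a higher mean in *Irf1-/-* HSCs. With a filter at a mean of 50 limma called *Cyp11a1* (0.77, adjusted *P* = 0.0456), and DESeq2 called *Cyp11a1* and *Zfp879*. Without WT replicate 4, limma called *Cyp11a1* (0.85, adjusted *P* = 0.0413) and *Pvr* (0.85, adjusted *P* = 0.0417). With 6 points chosen from 17404 genes, these values are descriptions.

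Among the ligands of the family, *Il18* was the most abundant in HSCs. Of 10 genes for ligands and their antagonist, 4 passed the filter on low values, 0 were called in limma, edgeR, or DESeq2, and 0 had an unadjusted *P* under 0.05 in any of these. The genes of the IL-36 group were found under their older symbols. *Il18* had 862, 667, and 906 normalized counts in WT replicates 2, 3, and 4 and 586, 711, and 697 in *Irf1-/-* HSCs. Per kb of transcript it was at 1156 ± 181 normalized counts (SD, *n* = 3 mice) in WT HSCs, above the transcripts of *Il18bp*, *Il1r1*, *Il1rap*, *Il1rl1*, *Il18r1*, and *Il18rap*. The genotypes overlapped (log2 difference −0.28, 95% interval −0.62 to 0.054, adjusted *P* = 0.417, limma). *Il1b*, which encodes IL-1β, had 44.4, 90.2, and 125 normalized counts in WT and 82.1, 23.3, and 44.6 in *Irf1-/-* libraries. *Il1a*, which encodes IL-1α, had 17.6 ± 17.8 (SD, *n* = 3 mice) in WT and 16.8 ± 15.1 in *Irf1-/-* HSCs, and both genes overlapped between genotypes. *Il33*, the remaining tested gene, which encodes the ligand of ST2, had 7.41, 10.1, and 34.4 normalized counts in WT and 6.40, 5.18, and 7.27 in *Irf1-/-* libraries. It passed the filter on low values only through WT (mean 17.3, against 6.28 in *Irf1-/-* HSCs), and mainly through WT replicate 4. For this reason no direction is read from its libraries, and it was not called (−1.04, adjusted *P* = 0.601, limma). The median log2 difference of the 4 tested genes, *Il33* included, was −0.56.

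Maturation of IL-1β and IL-18 requires caspase-1, and of 11 genes for this step 2 were called lower (0.954% of all tested genes were) and 0 higher in limma, with a median log2 fold change of −0.27. All *Irf1-/-* libraries were below WT for 5 of the 11 genes (9.27% of all tested genes) and above WT for 1 (10.6%), and 6 of the 11 had an unadjusted *P* under 0.05 in limma (16.5%). The median, the 5, and the 6 include *Nlrp1b*, which was not called (adjusted *P* = 0.186, limma). *Nlrp1b* passed the filter on low values only through WT (mean 33.6, against 9.72 in *Irf1-/-* HSCs), so no direction is read from its libraries. *Casp1* had 2031, 2008, and 2058 normalized counts in WT replicates 2, 3, and 4 and 287, 290.3, and 412 in *Irf1-/-* HSCs. The genotypes were far apart, at −2.64 in log2 (95% interval −2.97 to −2.31, adjusted *P* = 1.89e-07, limma). *Nlrp1a*, an inflammasome sensor, fell by 0.88 on the log2 scale (adjusted *P* = 0.0368, limma), a call lost in limma without any 1 library other than *Irf1-/-* replicate 3 (adjusted *P* from 0.0514 to 0.158) and without the intensity trend (adjusted *P* = 0.127). The adjusted *P* of *Nlrp1a* ranged from 0.00192 to 0.158 over the 16 alternative fits. The adaptor *Pycard* (−0.27, unadjusted *P* = 0.0248, limma) and the pore-forming *Gsdmd* (−0.20, unadjusted *P* = 0.0413, limma) had all *Irf1-/-* libraries below WT and were not called, and *Casp8* (−0.01) overlapped between genotypes.

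Of the other receptor chains and decoys, 0 of 4 were called in limma, edgeR, or DESeq2 (median 0.38), and *Il1rapl2*, the remaining abundant gene, was at 0.44. Of 19 other adaptors, kinases, and ubiquitin ligases at the receptor, 0 were called in limma, edgeR, or DESeq2, 9 had *Irf1-/-* libraries all above WT (10.6% of all tested genes did) and 0 all below (9.27%), and the median was 0.11. Among them *Irak3*, an inhibitory relative of IRAK1, had 6166 ± 588 normalized counts (SD, *n* = 3 mice) in WT and 7617 ± 393 in *Irf1-/-* HSCs, a difference in log2 of 0.31 (adjusted *P* = 0.0958, limma). *Map3k3* was at 0.28 (adjusted *P* = 0.0909, limma) and *Tollip* at −0.05 (adjusted *P* = 0.874, limma). An unadjusted *P* under 0.05 in limma was reached by 1 of the 4 and 7 of the 19 genes, and by 16.5% of all 17404 tested genes. *Irak2*, a relative of IRAK1 named after its value was seen, was called without *Irf1-/-* replicate 3 (0.61, adjusted *P* = 0.0307, limma).

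Downstream transcripts were centred near 0. Of 10 genes of the IKK and NF-κB list 0 were called in limma, edgeR, or DESeq2 (median −0.015), with *Rela* at 0.12, *Nfkb1* at −0.08, and *Ikbkb* at 0.02. Of 9 stress kinase genes 0 were called in limma, edgeR, or DESeq2 (median −0.016), with *Mapk14* at −0.02, *Map2k3* at −0.09, and *Mapk9* at −0.27. An unadjusted *P* under 0.05 in limma was reached by 0 of the 10 and 1 of the 9 genes, against 16.5% of all tested genes.

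Of 18 genes known to be induced by IL-1 family signaling, 13 were tested, 1 was called higher (0.960% of all tested genes were) and 0 lower in limma, and the median was 0.15. All *Irf1-/-* libraries were above WT for 6 of the 13 (10.6% of all tested genes) and below for 0 (9.27%), and 4 of the 13 had an unadjusted *P* under 0.05 in limma (16.5%). *Socs3*, a feedback inhibitor of cytokine receptors, had 694, 568, and 892 normalized counts in WT replicates 2, 3, and 4 and 1562, 1724, and 1541 in *Irf1-/-* HSCs. All *Irf1-/-* libraries were above all WT libraries (1.19, SE 0.15, adjusted *P* = 7.37e-04, limma), and the call was lost without the intensity trend (adjusted *P* = 0.120, the highest of the 16 alternative fits). *Icam1* was at 0.35 (adjusted *P* = 0.0714, limma), *Spi1* at 0.13 (adjusted *P* = 0.542, limma), and *Ier3* at 0.50 (adjusted *P* = 0.0285, limma), under the threshold on the fold change. Without *Irf1-/-* replicate 3, *Ier3* was called (0.61, adjusted *P* = 0.0138, limma).

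Markers of HSCs were abundant. The 11 genes summed to 224937, 249393, and 228196 normalized counts in *Irf1-/-* replicates 2, 3, and 4 and 228856, 233505, and 211408 in the corresponding WT replicates, with *Kit* the most abundant. These sums overlapped between genotypes, and 1 of 11 genes, *Fgd5*, was called higher in limma, against 0.960% of all tested genes. An unadjusted *P* under 0.05 in limma was reached by 6 of the 11 (16.5% of all tested genes). *Procr* was higher (0.52, adjusted *P* = 0.0112, limma) and *Ly6a* lower (−0.43, adjusted *P* = 0.0245, limma), without overlap and under the threshold on the fold change. Without WT replicate 2, *Procr* was called (0.58, adjusted *P* = 0.0149, limma). Called genes of the marker lists are named after their values were seen, and without the intensity trend limma called none of *Fgd5* (adjusted *P* = 0.0511), *Flt3* (0.358), *Pf4* (0.238), *Gp1bb* (0.187), and *Klf1* (0.316).

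Lists of other cell types moved with genotype in part. The 4 multipotent progenitor markers summed to 20408, 26242, and 21293.5 in *Irf1-/-* and 19679, 17868, and 20139 in WT libraries, led by *Cd34*, with 1 of 4 (*Flt3*) called higher in limma, against 0.960% of all tested genes, a call lost without any 1 *Irf1-/-* library or WT replicate 3 (adjusted *P* from 0.0747 to 0.127). The 4 endothelial markers summed to 20630, 23432, and 22643 in *Irf1-/-* and 18175, 18632, and 17904 in WT libraries, led by *Tie1*, which made up most of each sum (mean 17597 over all libraries). Of these 4, 0 were called and 3 had an unadjusted *P* under 0.05 in limma, edgeR, and DESeq2 alike (16.5% of all tested genes in limma). *Emcn* was called when *Irf1-/-* replicate 2, *Irf1-/-* replicate 4, WT replicate 2, or WT replicate 3 was left out (0.60 to 0.61 in log2) and after quantile normalization (0.59, adjusted *P* = 0.00458, limma). *Kdr* was called without WT replicate 4 (0.83, adjusted *P* = 0.0155, limma) and with a replicate block (0.59, adjusted *P* = 0.0324, limma). *Cdh5*, the remaining endothelial marker, was low and overlapped between genotypes. It had 20.8 ± 2.88 normalized counts (SD) in *Irf1-/-* and 18.2 ± 12.8 in WT HSCs (adjusted *P* = 0.810, limma). In both lists the lowest *Irf1-/-* sum was above the highest WT sum, by a small margin for the progenitor markers, where *Cd34* itself overlapped between genotypes.

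The 4 megakaryocyte markers summed to 47978, 30727, and 42017 in *Irf1-/-* and 55073, 66122, and 52839 in WT libraries, led by *Itga2b*, with 2 of 4 (*Pf4* and *Gp1bb*) called lower in limma, against 0.954% of all tested genes, and *Itga2b* called lower as well without WT replicate 4 (−0.67, adjusted *P* = 0.0449, limma). All 4 had *Irf1-/-* libraries all below WT (9.27% of all tested genes), and 3 had an unadjusted *P* under 0.05 in limma (16.5%). The 5 erythroid markers summed to 2924, 2216.5, and 2731 in *Irf1-/-* and 3705, 3828, and 2995 in WT libraries, led by *Epor*, with *Hba-a1* and *Hbb-bt* listed at 0 in all libraries. Of the 3 tested, 1 (*Klf1*) was called lower in limma, against 0.954% of all tested genes, a call lost when replicate 2 or 3 of either genotype was left out (adjusted *P* from 0.0583 to 0.117). In both lists the highest *Irf1-/-* sum was below the lowest WT sum. The part of these 4 lists in the results for the receptor genes was not tested.

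The list sums for markers of mast cells and lymphoid cells, which are known to carry receptors for IL-18 and IL-33, overlapped between genotypes. The 8 mast cell and basophil markers summed to 467, 439, and 458 in *Irf1-/-* and 463, 489, and 411 in WT libraries, led by *Cpa3*, with *Mcpt8*, *Mcpt4*, and *Tpsb2* under a mean of 10. The 12 markers of T cells, NK cells, and innate lymphoid cells summed to 4793, 5118, and 5855 in *Irf1-/-* and 6141, 5358, and 5803 in WT libraries, led by *Nkg7*, with *Cd3e*, *Cd3g*, and *Cd8a* under a mean of 10. The 6 B cell markers summed to 3103, 2873, and 3041 in *Irf1-/-* and 2772, 3048, and 2667 in WT libraries, led by *Cd79b*. The 10 granulocyte and monocyte markers summed to 28070, 33718.5, and 29798 in *Irf1-/-* and 24451, 32357, and 30499.8 in WT libraries, led by *Lyz2*. In these 4 lists 0 genes were called in limma or edgeR, and DESeq2 called *Cd14* higher. An unadjusted *P* under 0.05 in limma was reached by 1 lymphoid and 1 granulocyte or monocyte gene (16.5% of all tested genes). These were *Nkg7*, with all *Irf1-/-* libraries below WT (−0.34, adjusted *P* = 0.0894, limma), and *Cd14*, with all above (1.17, adjusted *P* = 0.0738, limma). The part of these lists in the results was not tested.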

How the data were processed

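Bulk RNA-seq of sorted HSCs covered 3 WT and 3 *Irf1-/-* mice, grouped by their genotype labels. The authors used Trim Galore, HISAT2 (on mm39, as named in the submitters' processing notes) and Htseq-count, and deposited a signal, the count of each gene after DESeq2 normalization, which divides it by the size factor of its library. Program versions, annotation and strand setting are not given in the sources used here. Whole reads were recovered for 100% of values (tolerance 0.01).

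In R 4.3.3, limma 3.58.1 with an intensity trend was fitted to log2(normalized count + 1) over all genes with a mean of at least 10, with Benjamini-Hochberg adjustment. The thresholds of a call were 0.05 on the adjusted *P* and 0.58 on the size of the log2 fold change. edgeR 4.0.16 and DESeq2 1.42.0 on recovered reads were alternatives, beside other pseudocounts, filters and scalings, a replicate block, and fits without each library. The fits were tested on simulated data. Of 100 genes changed by 1 in log2, limma called 60, edgeR 58, and DESeq2 62. Of 100 changed by 2 in log2 they called 82, 83, and 83, beside 8, 7, and 20 unchanged genes. Smaller changes were not simulated, and a gene that was not called can still differ. Levels per kb used the longest GENCODE vM1 coding transcript of each symbol.

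The members and lists were chosen with earlier results of these data known. Genes named by rule are the members, *Irf1*, called and 3 most abundant genes of each pathway list, and the most abundant and zero genes of each marker list. The rule also names the 3 genes most like 4 of the members, and the genes of the chromosome 1 cluster with 5 coding genes on each side. Other genes were named outside this rule. They include the neighbours of *Il18bp*, marker genes under the filter on low values, and genes named for their values, such as *Emcn*, *Kdr*, and *Procr*. Motifs were chosen after the values were seen. A gene that the rule names and a motif that was searched are not reported here.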

Additional observations from a re-analysis of the deposited data

How the results depend on the processing

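*Il18bp* was called lower, and was the 1 member called lower, under all 17 alternatives. Of 160 log2 fold changes of members under 16 alternative fits, 146 kept their direction and their side of the threshold, 7 lost a call, 3 gained one, and 4 changed sign. The sign changes were those of *Il1rl1* (0.075 without *Irf1-/-* replicate 3, range −1.19 to 0.075 with single libraries left out), *Myd88* (−0.012 without *Irf1-/-* replicate 3, range −0.012 to 0.085), and *Irak1* (0.031 after quantile normalization and 0.012 without WT replicate 3, range −0.075 to 0.012). The cause was not tested.

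Without the intensity trend in limma, 0 members were called higher, and over all genes 7 were called higher and 33 lower. With single libraries left out, 0 to 3 members were called higher, with the extremes when *Irf1-/-* replicate 2 and WT replicate 4 were removed. Over all genes 83 to 304 were then called higher (extremes at *Irf1-/-* replicate 4 and WT replicate 4) and 105 to 265 lower (extremes at WT replicates 3 and 4). DESeq2 called 289 genes higher. Without a threshold on the fold change, 301 genes were called higher and 260 lower. Members whose libraries did not overlap numbered 6 under quantile normalization and under median centring.

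Same-numbered libraries did not deviate together in each pair (correlations of −0.094, 0.25, and 0.15 for numbers 2, 3, and 4), and not every library correlated best with its own number. With a replicate block, 3 members were called higher and 1 lower, and 219 and 196 of all genes. Depth limits *Il1rl1* most, with 31 reads in 1 library.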
